A study of Caenorhabditis elegans with 10 samples.

Results

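Small heat shock proteins were followed in whole Caenorhabditis elegans larvae as the animals left starvation arrest. The 10 genes described are hsp-12.1 (T22A3.2), hsp-12.2 (C14B9.1), hsp-12.3 (F38E11.1), hsp-12.6 (F38E11.2), hsp-16.2 (Y46H3A.3), hsp-16.41 (Y46H3A.2), hsp-17 (F52E1.7), hsp-25 (C09B8.6), hsp-43 (C14F11.5) and sip-1 (F43D9.4). They were chosen by gene identifier from 13374 counted gene units, and all 10 had enough counts to be tested. Polyadenylated RNA came from N2, the wild-type laboratory strain, at the first larval stage, L1. Every group began the same way: bleaching freed the embryos, which then spent 24 h unfed at 20 °C, about 12 h of that time as arrested L1 larvae. Starved larvae gave 3 libraries, and larvae given the bacterial strain HB101 at 25 mg/mL gave 2 libraries after 1 h, 2 after 3 h and 3 after 6 h. There was no unfed library at the later times, so feeding and elapsed time cannot be told apart. Because RNA came from whole animals, fewer cells of a type and less RNA per cell cannot be told apart either.

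Small heat shock proteins are chaperones built around an alpha-crystallin domain. They bind unfolded proteins without using ATP and keep them from clumping until ATP-dependent chaperones such as HSP70 can refold them. In C. elegans, hsp-16 genes are the classic reporters of heat stress and are driven by the heat shock factor HSF-1. Other members, hsp-12.6 among them, have been linked to DAF-16, the transcription factor that is active when insulin signalling is low, as it is in arrested larvae. The HSP-12 proteins are the shortest of the family, with little sequence on either side of the central domain.

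Summed counts ranged from 19163997 to 38607167 per library. Levels are CPM, the count of a gene relative to the total of its library, scaled by edgeR's TMM factors. Changes are log2 fold changes ± SE against starved larvae, and adjusted p values come from edgeR's quasi-likelihood test over all 13226 tested units, with 0.05 as the threshold for a call. Replicate 3 of the starved larvae was the highest of the 3 starved libraries for 7 of the 10 members and for 32.8% of all tested units. Calls that change without it are given beside the results. Body wall muscle markers (myo-3 and unc-15, 2 of 3 listed) summed to 2320 to 3354 CPM in starved larvae and 1216 to 1944 CPM in fed larvae, and intestine markers (3 of 3) to 104.5 to 124 CPM and 46.03 to 79.5 CPM. The intestine genes did not move alike. From starved larvae to 1 h, ges-1 went from 80.3 to 25.75 CPM, but elt-2 from 24.3 to 35.9 CPM (called higher, adjusted p = 0.0192). The third, elt-7, was not called at any time. Epidermis markers (2 of 3) summed to 117.5 to 135.5 CPM in starved larvae and 169.6 to 217 CPM in fed larvae. Pharynx muscle markers (3 of 3) summed to 1403 to 2364 and 919 to 1493 CPM, and neuron markers (3 of 3) to 464 to 795 and 339 to 571 CPM. Their part in the members' changes was not tested. No marker list of the 7 cell types and stages examined summed to 0 in any group.

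The members did not move as one family. At 1 h, hsp-17, hsp-16.2 and hsp-16.41 rose while hsp-12.6, sip-1 and hsp-43 fell. At 3 h, hsp-17 alone rose and hsp-12.3, hsp-12.6 and sip-1 fell. At 6 h, hsp-17, hsp-12.1 and hsp-25 rose and the same 3 members as at 3 h fell. The 3 members higher at 1 h compare with 20.4% of all tested units, and the 3 lower with 18.7%. At 3 h the counts of 1 and 3 compare with 21.9% and 19.7%, and at 6 h the counts of 3 and 3 compare with 27% and 25%. The median log2 fold change of the members was -0.47, -0.11 and -0.09 at 1 h, 3 h and 6 h, and that of all tested units was -0.0035, -0.02 and -0.04. Over all 4 groups, 7 of the 10 members changed in a joint test, against 55.8% of all tested units. The 3 that did not pass it were hsp-12.2 (adjusted p = 0.196), hsp-16.41 (0.0574) and hsp-43 (0.128). In 19 alternatives hsp-16.41 passed it 9 times, among them without starved replicate 3 (adjusted p = 0.00846) or any 6 h library, and hsp-12.2 and hsp-43 passed 2 times each. Of the 7 that passed, hsp-25 did so in 14 of 18 alternatives, but not with library totals (adjusted p = 0.263) or upper-quartile scaling (0.0564). The count for hsp-16.2 was 18 of 19, and the others passed in all 19. Leaving out each library in turn gave 5 to 9 members called jointly, with 5 when replicate 1 at 1 h was left out. Without starved replicate 3, the count of higher members became 3 at 3 h and 5 at 6 h, and the count of lower members at 1 h became 1. Leaving out either library of the 1 h group also left 1 lower member at 1 h, and without its replicate 1 only 1 member was higher. Without starved replicate 2, 2 members were higher at 3 h.

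**Figure D1:**
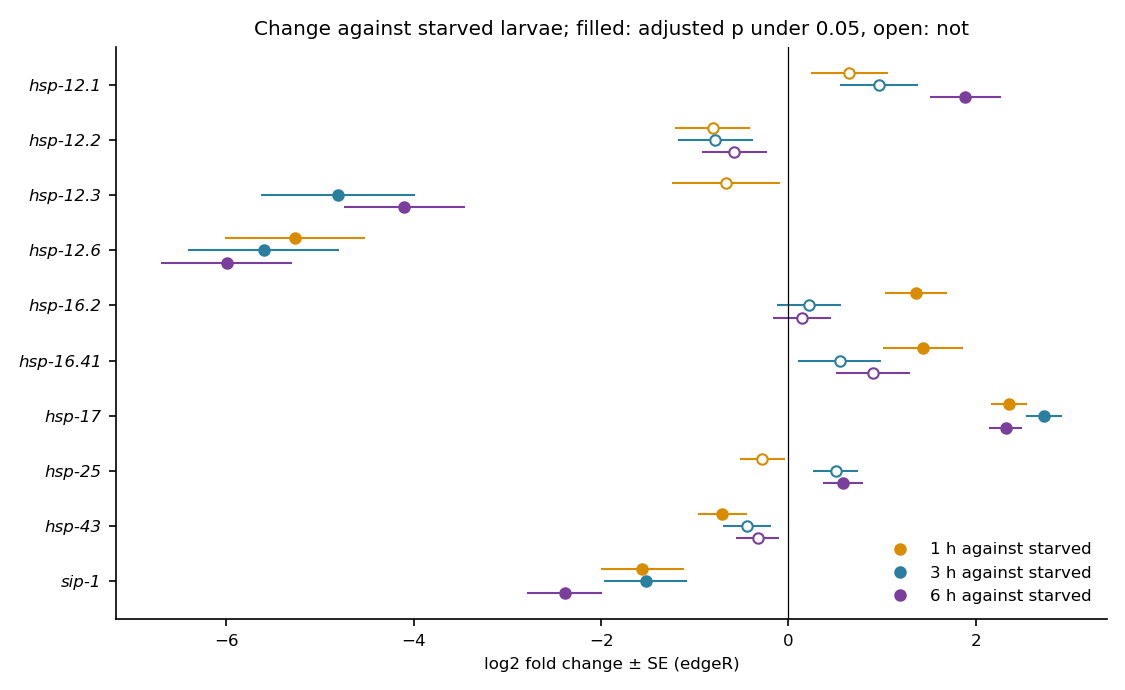
Log2 fold changes of the 10 members at 1 h, 3 h and 6 h after feeding against starved larvae, with bars of 1 SE. Filled points passed an adjusted p of 0.05 and open points did not: hsp-12.6 lies between -5.27 and -5.995 at the 3 times, and hsp-17 between 2.32 and 2.73.

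Among the HSP-12 genes, hsp-12.6 was the member that fell soonest and farthest. It encodes a short single-domain protein and lies at chrIV:9446362-9446886 on the minus strand in the authors' WS210 gene models. The starved libraries held 10.4, 4.70 and 8.41 CPM. After 1 h of feeding the level was 0.112 and 0.280 CPM, after 3 h 0.273 and 0.0486 CPM, and after 6 h 0.324, 0.0462 and 0 CPM. Every fed library lay below every starved one, with 662 counts in the 3 starved libraries and 24 in the 7 fed ones. The library with 0 counts allows a level of up to 0.149 CPM at 3 counts, which covers counting error only. The fall was -5.27 ± 0.75 at 1 h (adjusted p = 6.56e-05), -5.60 ± 0.81 at 3 h (adjusted p = 6.59e-05) and -5.995 ± 0.70 at 6 h (adjusted p = 6.56e-06). Single libraries moved the size of these values at such low counts: it was -6.06 at 1 h without replicate 2, -7.19 and -4.81 at 3 h without replicate 1 or replicate 2, and -8.08 at 6 h without replicate 1, with the call kept in each. All of the remaining fed counts came from 1 of the gene's 2 exonic bins, the pieces into which exons were divided for counting. The other, bin 2, which lies nearer the start of the transcript, had 35, 55 and 39 counts in the starved libraries and 0 in each of the 7 fed libraries. With 3 counts over the fed group as the floor, that bin was at least 73.1-fold lower after feeding.

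Its neighbour hsp-12.3 fell later. The gene lies on the same strand, at chrIV:9444765-9445301, and its product was reported to have no chaperone-like activity in vitro. The starved libraries held 9.54, 4.61 and 8.06 CPM, and the 1 h libraries 5.92 and 3.39 CPM. At 3 h the level was 0.328 and 0.194 CPM, and at 6 h it was 1.13, 0.0925 and 0.0996 CPM. The 1 h libraries overlapped the starved ones, whereas all 5 later libraries lay below both. The difference at 1 h did not pass (-0.67 ± 0.58, adjusted p = 0.395). The fall was -4.81 ± 0.82 at 3 h (adjusted p = 0.000308) and -4.10 ± 0.64 at 6 h (adjusted p = 0.000113). Without replicate 1 at 6 h, the highest of its group, the 6 h value became -6.19 (adjusted p = 4.07e-06). Between 1 h and 3 h hsp-12.3 was the only member called, and it was lower (-4.14 ± 0.85, adjusted p = 0.00765), against 4.6% of tested units lower and 4.79% higher in that step. This step lost its call without replicate 1 at 1 h (adjusted p = 0.0596) and without replicate 1 (adjusted p = 0.058) or replicate 2 (adjusted p = 0.107) at 3 h.

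Set against each other, the genes of this pair had similar CPM in starved larvae and lay apart at 1 h. These CPM are not corrected for length. Per kilobase of bins, the starved means were 21.9 for hsp-12.6 and 15.3 for hsp-12.3, and their libraries overlapped. The log2 ratio of hsp-12.6 to hsp-12.3, from CPM with a prior count of 2, was 0.12, 0.03 and 0.06 in the starved libraries. At 1 h it was -4.95 and -3.27. The 3 h libraries gave -0.21 and -1.08, and the 6 h libraries -1.58, -0.45 and -1.15. All 7 fed libraries lay below the 3 starved ones, but they spread widely, and those at 1 h lay apart from the rest. At 3 h and 6 h both genes were near the floor, with 0 to 6 counts of hsp-12.6 and 2 to 21 of hsp-12.3 per library. Those ratios therefore rest on few reads and on the prior count. At 1 h the counts were 3 and 8 for hsp-12.6 and 158 and 97 for hsp-12.3. The mean ratio was 1.88 log2 units lower in fed larvae, which an exact two-sided permutation test over 120 splits did not separate (p = 0.075, adjusted p = 0.1 over 2 ratios). At 1 h alone, the difference of -4.18 had an exact permutation p of 0.1, the smallest that 3 against 2 libraries allow.

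**Figure D2:**
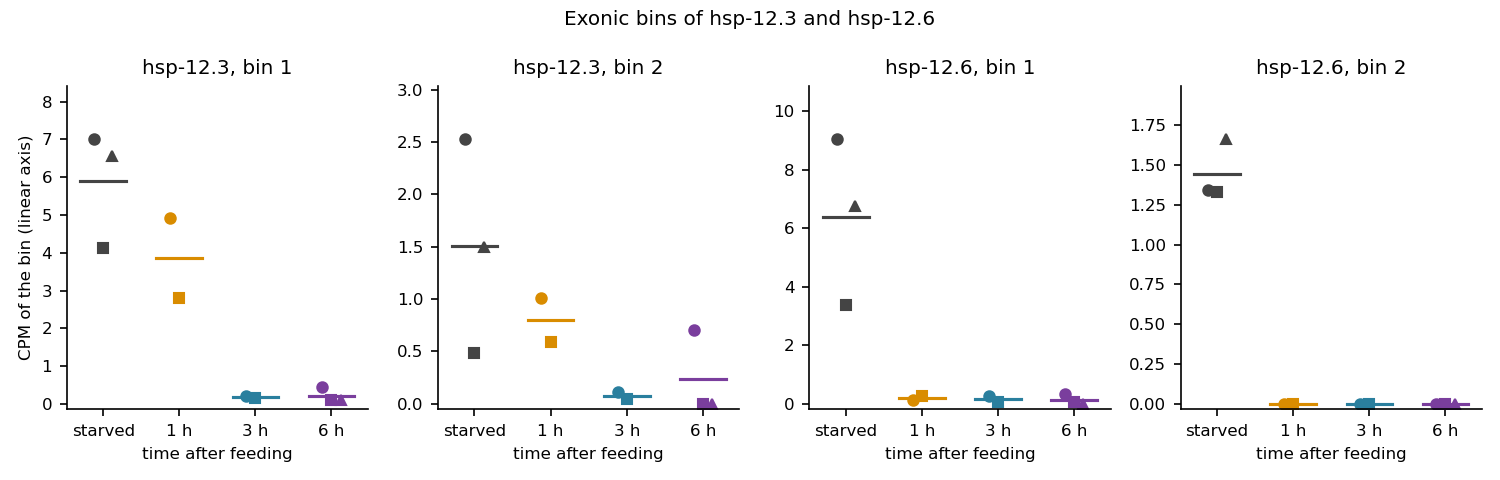
CPM of each exonic bin of hsp-12.3 and hsp-12.6 on a linear axis, with 1 point per library, marker shapes for the replicate and a line at each group's mean. Bin 2 of hsp-12.6 had 0 counts in each of the 7 fed libraries, while hsp-12.3 kept counts in both bins at 1 h.

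The level of hsp-12.2 was the highest of the 10 per length at every time, and its differences from starved larvae did not pass the test. Its product, like that of hsp-12.3, was reported to form small oligomers without chaperone-like activity. The gene lies at chrIII:8138016-8139557, plus strand. The starved libraries held 567, 679 and 1324 CPM. The level was 473 and 505 CPM at 1 h, 406 and 592 CPM at 3 h, and 411, 397 and 915 CPM at 6 h. Only the 1 h libraries lay wholly below the starved ones, and starved replicate 3 and 6 h replicate 3 were the highest of all 10. The log2 differences of -0.81 ± 0.40, -0.78 and -0.58 had adjusted p values of 0.127, 0.135 and 0.183. The 6 h difference passed in some alternatives. It was -0.62 (adjusted p = 0.026) with barcodes 1 to 8 alone, -0.88 (0.0374) with library totals and -1.08 (0.0124) without replicate 3 at 6 h. In other fits the 6 h difference shrank. It was -0.12 (adjusted p = 0.777) without starved replicate 3, and -0.39 (0.438) or -0.37 (0.442) without replicate 1 or 2 at 6 h. The 3 h difference passed with library totals (-1.01, adjusted p = 0.0472). Starved replicate 3 and 6 h replicate 3, the highest libraries, are those with barcodes 13 and 16. Of its counts, 71% fell in a bin with 21 bases shared by a gene model on the other strand.

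In the opposite direction, hsp-12.1 was the lowest of the 10 per length in starved larvae and rose late. The gene lies at chrI:10581577-10582600, minus strand. Its level was 0.690, 2.16 and 1.54 CPM in the starved libraries, 2.21 and 2.45 CPM at 1 h, and 2.24 and 3.55 CPM at 3 h. At 6 h it was 6.63, 4.99 and 4.88 CPM, and all 3 libraries lay above the other 7. The rise at 6 h was 1.89 ± 0.38 (adjusted p = 0.000771), while 0.65 at 1 h and 0.97 at 3 h had adjusted p values of 0.237 and 0.0783. The value at 3 h passed without starved replicate 2 (1.37, adjusted p = 0.0228). The whole gene had 143 counts in the 3 starved libraries, so this is the least deeply measured member before feeding.

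**Figure D3:**
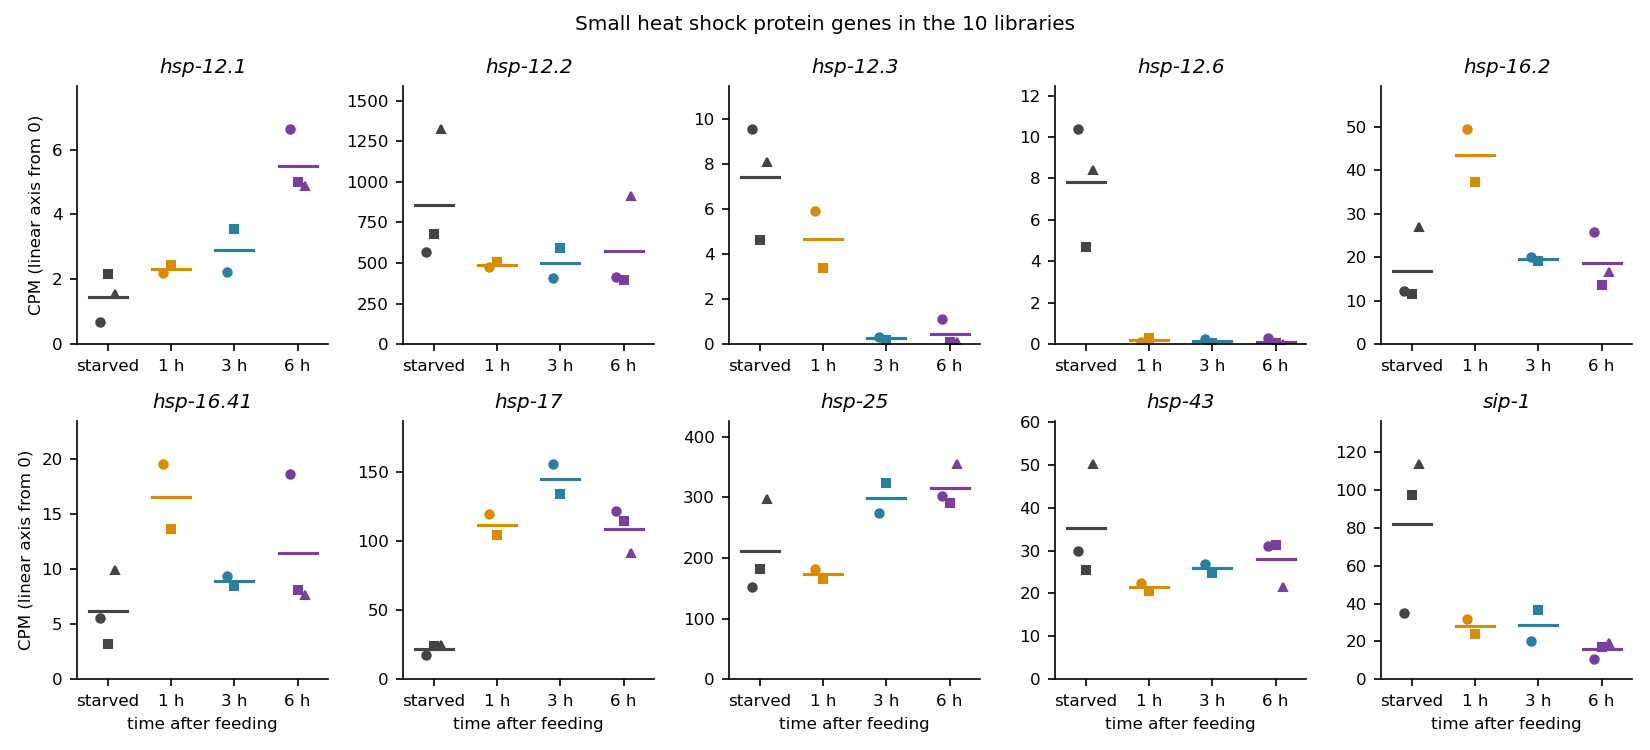
CPM of each of the 10 members in every library, on a linear axis from 0, grouped by time after feeding, with marker shapes for the replicate and a line at each group's mean. The fed libraries of hsp-12.6 all sit below the starved ones, those of hsp-17 all above, and hsp-12.2 overlaps between starved, 3 h and 6 h.

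The heat-inducible pair hsp-16.2 and hsp-16.41 rose at 1 h, and the mean of each was highest at that time. The genes are divergent neighbours on chromosome V, hsp-16.2 at chrV:1804334-1804971 on the minus strand and hsp-16.41 at chrV:1805233-1805875 on the plus strand. The level of hsp-16.2 was 12.34, 11.6 and 26.8 CPM in starved larvae, 49.4 and 37.3 CPM at 1 h, 20.0 and 19.1 CPM at 3 h, and 25.7, 13.6 and 16.6 CPM at 6 h. The level of hsp-16.41 was 5.52, 3.18 and 9.90 CPM in starved larvae, 19.6 and 13.6 CPM at 1 h, 9.39 and 8.51 CPM at 3 h, and 18.7, 8.14 and 7.67 CPM at 6 h. For hsp-16.2 both 1 h libraries lay above all the others. For hsp-16.41 they lay above the starved and 3 h libraries, but 6 h replicate 1 lay between them.

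The rise at 1 h was 1.36 ± 0.33 for hsp-16.2 (adjusted p = 0.00513) and 1.44 ± 0.43 for hsp-16.41 (adjusted p = 0.0169). Without replicate 1 at 1 h, neither passed (adjusted p = 0.0674 and 0.153). The call of hsp-16.41 was also lost without starved replicate 1 (adjusted p = 0.052) or replicate 2 (adjusted p = 0.0529). At 3 h, hsp-16.2 differed by 0.21 (adjusted p = 0.657) and hsp-16.41 by 0.55 (adjusted p = 0.355). At 6 h the values were 0.15 (adjusted p = 0.714) and 0.90 (adjusted p = 0.0729). Without starved replicate 3, hsp-16.2 passed at 3 h (0.71, adjusted p = 0.0469) and 6 h (0.64, adjusted p = 0.0439), and hsp-16.41 at 6 h (1.41, adjusted p = 0.00824). It also passed at 6 h without replicate 2 (1.10, adjusted p = 0.0487) or replicate 3 (1.12, adjusted p = 0.0382) of that group. The decline of hsp-16.2 from 1 h to 3 h did not pass (-1.15, adjusted p = 0.0747) but did without starved replicate 3 (-1.15, adjusted p = 0.0132), with the same libraries compared. For hsp-16.41 that decline was -0.89 (adjusted p = 0.295). The log2 ratio of hsp-16.41 to hsp-16.2 was 0.43 higher in fed than in starved larvae, which the exact permutation test did not separate (p = 0.1, adjusted p = 0.1). The difference was 0.24 without starved replicate 2, and with the longest bin of each gene its sign turned, to -0.09 (exact permutation, adjusted p = 0.683).

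Near-identical copies limit these values. The other hsp-16 genes, a cluster of inverted repeats, had equal counts for hsp-16.48 and hsp-16.49 in 10 of 10 libraries, and hsp-16.1 and hsp-16.11 differed by at most 11 counts in any library, so reads of a copy could not be assigned. How far reads of the other copies reach hsp-16.2 and hsp-16.41 was not tested. Over these copies, hsp-16.11 went from 94.0 ± 40.7 CPM (SD, n = 3) in starved larvae to 209 ± 61.5 (n = 2) at 1 h and 97.4 ± 12.8 (n = 2) at 3 h. The level of hsp-16.48 was 80.7 ± 28.7, 247 ± 100.4 and 119.5 ± 12.4 CPM in the same groups. All 4 of these genes rose at 1 h, but none passed without replicate 1 at 1 h.

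**Figure D4:**
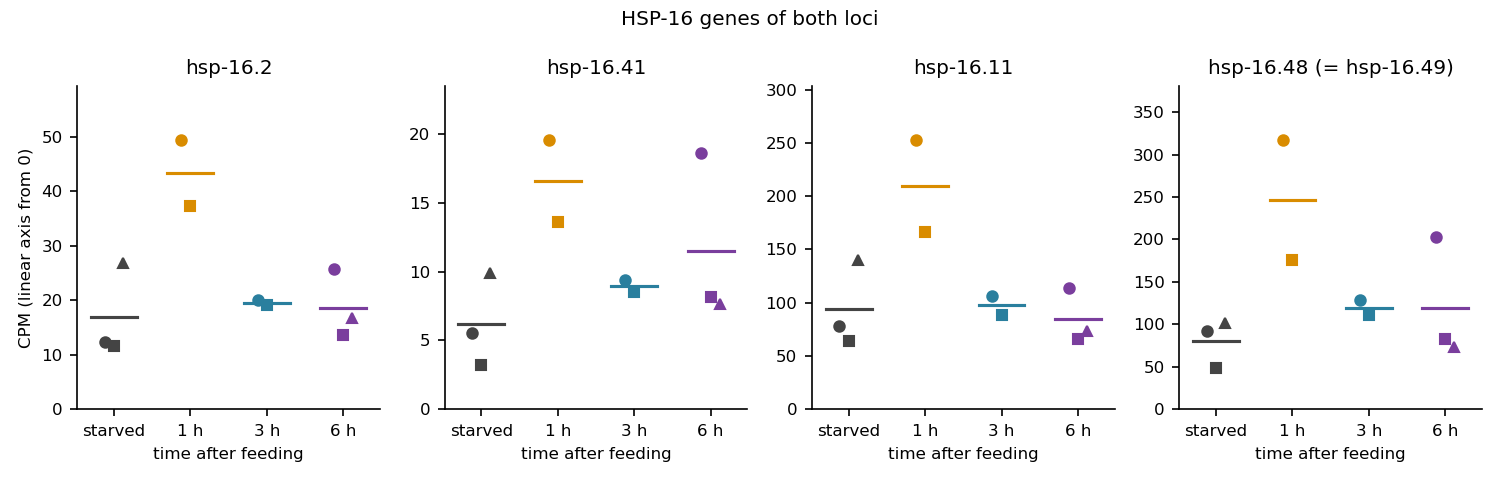
CPM of hsp-16.2, hsp-16.41, hsp-16.11 and hsp-16.48 in every library on a linear axis from 0, with marker shapes for the replicate and a line at each group's mean. Both 1 h libraries of hsp-16.2, at 49.4 and 37.3, stand above all of its other libraries, and the mean of each gene is highest at 1 h.

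Of the remaining members, hsp-17 rose most and stayed above its starved level. In vitro, HSP-17 has been reported to gather unfolded proteins into aggregates. The gene lies at chrV:8384753-8385906 on the minus strand. Its level was 17.5, 23.7 and 24.5 CPM in starved larvae, 119.7 and 104.4 CPM at 1 h, 156 and 134 CPM at 3 h, and 122, 114.5 and 91.3 CPM at 6 h. All 7 fed libraries lay above the starved ones, the lowest of them at 91.3 CPM. The 6 h libraries lay below those at 3 h, a step that did not pass (-0.41 ± 0.19, adjusted p = 0.327). The rise was 2.35 ± 0.19 at 1 h (adjusted p = 3.13e-07), 2.73 ± 0.19 at 3 h (adjusted p = 8.01e-08) and 2.32 ± 0.18 at 6 h (adjusted p = 1.15e-07), which is 5.11-fold, 6.63-fold and 4.99-fold. All 5 of its bins with 100 or more counts were higher at each time. Of its counts, 30.4% lay in bins that overlap a gene model on the other strand, and with those bins left out the call stood at every time.

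The gene sip-1, whose product is known from oocytes and embryos as a chaperone needed for embryonic survival under heat stress, fell. It lies at chrIII:10505995-10506690, minus strand. Its level was 35.0, 97.4 and 113.9 CPM in the starved libraries, 31.7 and 24.1 CPM at 1 h, and 20.4 and 36.6 CPM at 3 h. At 6 h it was 10.5, 17.2 and 19.2 CPM, below every other library. Starved replicate 1 was close to the fed libraries and was passed by 1 of those at 3 h. The fall was -1.56 ± 0.45 at 1 h (adjusted p = 0.0156), -1.53 ± 0.45 at 3 h (adjusted p = 0.0164) and -2.39 ± 0.40 at 6 h (adjusted p = 0.000369). At 1 h the adjusted p was above 0.05 when starved replicate 2 (0.0575), starved replicate 3 (0.0626), 1 h replicate 1 (0.0507) or 1 h replicate 2 (0.113) was left out. At 3 h it was so when starved replicate 2 (0.0607), starved replicate 3 (0.0646) or 3 h replicate 1 (0.13) was left out. The values without starved replicate 3 were -1.25 at 1 h and -1.22 at 3 h, and the call at 6 h stood in every alternative run. Embryo and maternal markers (8 of 8) summed to 55.2 to 107 CPM before feeding, and to 86.2 to 89.7, 72.6 to 100.5 and 80.7 to 108 CPM at the 3 fed times. At 6 h 6 of the 8 were called lower (oma-1, oma-2, pos-1, pie-1, puf-5 and egg-1) and 1, mex-3, higher, against 25% and 27% of all tested units. By then oma-2 went from 8.22 to 2.61 CPM and pos-1 from 16.44 to 4.76 CPM, while mex-3, the most abundant of the list, went from 40.8 to 72.0 CPM. At 1 h 0 were lower and 1, cbd-1, was higher, and at 3 h 3 were lower. Adult yolk markers (4 of 6) summed to 1.15 to 2.88 CPM in starved larvae and 1.19 to 1.94 at 6 h. The part of embryonic RNA in the fall of sip-1 was not tested.

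The level of hsp-25, a protein known from the attachment structures of body wall muscle, was called higher at 6 h. The gene lies at chrX:6034052-6039456, minus strand. The starved libraries held 153, 182 and 298 CPM, and the 1 h libraries 182.5 and 165 CPM. The level was 274 and 323 CPM at 3 h and 301, 290.4 and 355 CPM at 6 h. Starved replicate 3 overlapped the 3 h and 6 h groups, while starved replicates 1 and 2 lay below them. The difference was -0.28 at 1 h (adjusted p = 0.395), 0.50 at 3 h (adjusted p = 0.107) and 0.58 ± 0.22 at 6 h (adjusted p = 0.0352). The 6 h and 3 h levels differed by 0.08 (adjusted p = 0.918). The call at 6 h was lost in 9 alternatives, among them library totals without TMM (0.27, adjusted p = 0.263) and upper-quartile scaling (0.37, adjusted p = 0.175). It was also lost without starved replicate 1 (adjusted p = 0.145) or 2 (0.122), 1 h replicate 1 (0.0579) or 2 (0.0581), or 6 h replicate 1 (0.0556) or 3 (0.109). Without starved replicate 3, hsp-25 passed at 3 h (0.83, adjusted p = 0.00268) and between 1 h and 3 h (0.78, adjusted p = 0.016). Of its 8 bins with 100 or more counts, 7 were lower at 1 h, 7 were higher at 3 h and 8 were higher at 6 h. The muscle markers given above were lower after feeding, and their part in the values of hsp-25 was not tested.

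The longest member by bin length after hsp-25, hsp-43, had a small fall that was called at 1 h, and with another scaling at 3 h and 6 h instead. Its gene lies at chrX:6233779-6235500, minus strand. The level was 29.9, 25.4 and 50.3 CPM in starved larvae, 22.5 and 20.6 CPM at 1 h, 27.0 and 24.7 CPM at 3 h, and 31.1, 31.3 and 21.6 CPM at 6 h. The 1 h libraries lay below the starved ones, and the 3 h and 6 h groups overlapped them. The difference was -0.71 ± 0.26 at 1 h (adjusted p = 0.0443), -0.44 at 3 h (adjusted p = 0.192) and -0.33 at 6 h (adjusted p = 0.246). With library totals hsp-43 was called lower at 3 h (-0.67, adjusted p = 0.0432) and 6 h (-0.65, adjusted p = 0.0216), but not at 1 h (-0.58, adjusted p = 0.0838). Without starved replicate 3 the 6 h difference was 0.02 (adjusted p = 0.947). The call at 1 h was lost in 12 alternatives, with adjusted p values from 0.0502 without replicate 2 at 6 h to 0.216 without replicate 2 at 1 h. Leaving out starved replicate 3 (-0.36, adjusted p = 0.201), replicate 1 at 1 h (0.128), either library at 3 h (0.0577 and 0.0574) or replicate 1 at 6 h (0.0522) also lost it. The counted bins belong to a single transcript of hsp-43, and the authors' deposited FPKM table lists another, at 42.5 FPKM against 2.25 FPKM for the counted one in starved larvae. That other transcript was at 29.4, 21.3 and 22.1 FPKM at 1 h, 3 h and 6 h.

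Between 3 h and 6 h, 0 of the 10 members were called by edgeR's quasi-likelihood test, against 2.77% of tested units. At an unadjusted p under 0.05 there were 2, hsp-17 and hsp-12.1, and DESeq2 called 0.

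Levels were compared between genes per length, as CPM per kilobase of bins, a measure that depends on which bins were counted. In starved larvae the order was hsp-12.2, hsp-25, sip-1, hsp-17, hsp-43, hsp-16.2, hsp-12.6, hsp-12.3, hsp-16.41 and hsp-12.1. The top of it was 1697 ± 809 CPM per kilobase (SD, n = 3) for hsp-12.2, rank 105 of 13226 units, and the next was 155 for hsp-25. From hsp-17 at 37.5 to hsp-16.41 at 10.6 CPM per kilobase, each neighbour in the order overlapped the next over the libraries. At 1 h hsp-17 stood next to hsp-12.2 at 192 CPM per kilobase, followed by hsp-25 at 128 and hsp-16.2 at 73.2, and no neighbours overlapped. At 3 h hsp-17 (249) and hsp-25 (220.1) followed hsp-12.2 and overlapped each other. At 6 h hsp-25 (233) and hsp-17 (187) followed it without overlap, while hsp-12.3 (0.910) and hsp-12.6 (0.344) were last and overlapped. The authors' pooled FPKM placed hsp-25 above hsp-17 at 1 h (282 against 230) and 3 h (372 against 211), the reverse of this order. In starved larvae and at 6 h both measures placed hsp-25 higher. Bin 1 of hsp-25, 383 of its 1357 bases, had at most 10 counts in any library. Shares were taken of the summed level of the chosen members. That sum leaves out the other small heat shock protein genes, so these are not shares of the whole family. The share of hsp-12.2 was 76.9% to 81.5% in starved larvae and 63.2% to 68.6% at 1 h. It was 57.9% to 66.0% at 3 h and 58.8% to 77.6% at 6 h. Over the same groups the share of hsp-17 was 1.31% to 2.33%, 12.27% to 13.8%, 12.96% to 19.3% and 6.71% to 15.1%. These levels carry no test of a difference between genes.

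**Figure D5:**
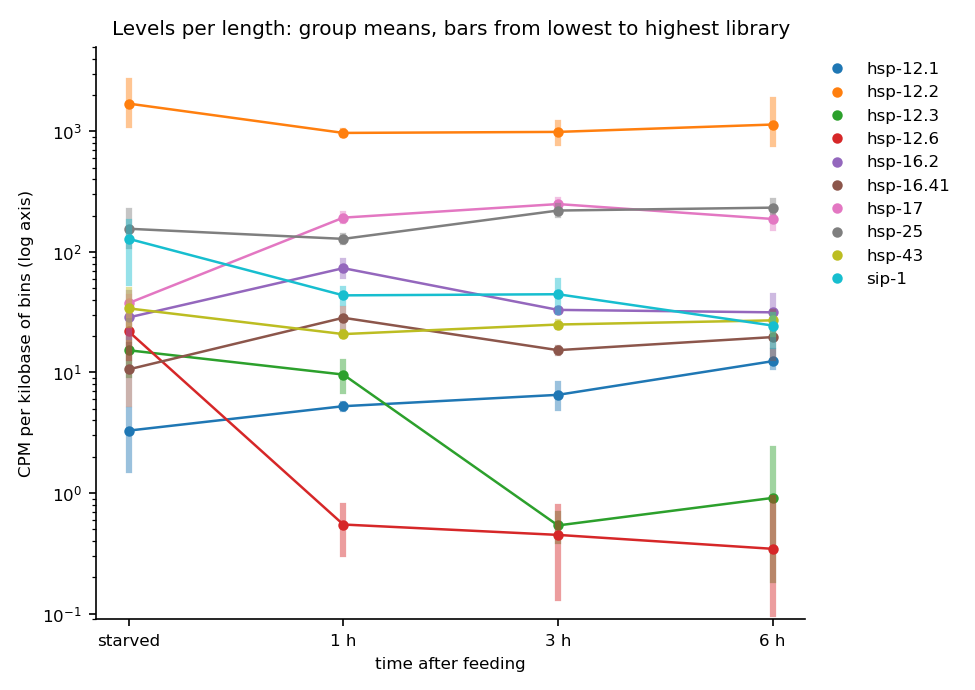
Mean level of each member as CPM per kilobase of exonic bins, on a log axis, in starved larvae and 1 h, 3 h and 6 h after feeding, with bars from the lowest to the highest library. The level of hsp-12.2 was 1697 in starved larvae and that of hsp-12.6 went from 21.9 to 0.344 by 6 h, where its bar reaches 0 and ends at the foot of the axis.

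The authors' deposited FPKM values, which pool the libraries of a time point, gave hsp-12.6 as 35.2, 1.09, 0.805 and 1.58 FPKM in starved, 1 h, 3 h and 6 h larvae. For hsp-17 they gave 31.6, 230.2, 211 and 175 FPKM, and for hsp-16.2 44.7, 121.9, 43.3 and 38.5 FPKM. Across the 10 members and 3 times, the sign of the change was the same as in the counts in 26 of 30 values. It differed for hsp-12.1 at 1 h and 3 h and for hsp-16.2 at 3 h and 6 h, none of them called in the counts. For hsp-12.1 the FPKM were 7.71, 7.56, 7.09 and 15.3 in the same order. Its log2 FPKM ratio at 6 h was 0.99, against 1.89 in the counts. The FPKM and the counts rest on the same reads, so their agreement is not independent evidence.

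Beyond these 10, 6 other small heat shock protein genes were counted. At 1 h 4 of them were higher and 2 lower, and at both later times 0 were higher and 2 lower. Of all tested units, 20.4%, 21.9% and 27% were higher at 1 h, 3 h and 6 h, and 18.7%, 19.7% and 25% lower. The 4 higher genes are the hsp-16 copies described above, with equal or nearly equal counts within each pair. They are not 4 separate measurements, and each copy enters the median. The median log2 fold change of the 6 was 1.16, 0.05 and -0.16. The 2 lower ones were F08H9.3, which went from 10.2 ± 3.61 CPM (SD, n = 3) to 0.410 ± 0.26 (n = 2) at 1 h, and ZK1128.7, which went from 50.5 ± 11.3 to 16.7 ± 1.53 CPM. The fall at 1 h was -4.61 ± 0.58 for F08H9.3 (adjusted p = 2.13e-05) and -1.60 ± 0.22 for ZK1128.7 (adjusted p = 4.80e-05).

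The ATP-dependent chaperones and co-chaperones of the cytosol, to which small heat shock proteins hand their clients, were mostly called higher. Of 13, 9 were higher at 1 h, 10 at 3 h and 11 at 6 h, and 0 were lower, with medians of 1.56, 1.37 and 1.37 on the log2 scale. Among all tested units, 20.4%, 21.9% and 27% were higher at these times, and 18.7%, 19.7% and 25% lower. The level of hsp-1, the constitutive HSP70 of the cytosol, was 871 ± 181 CPM before feeding, then 3643 ± 69.1, 5166 ± 303 and 4686 ± 791 CPM at the 3 fed times (SD, n = 3, 2, 2 and 3). The level of hsp-110, which recharges HSP70, went from 89.6 ± 13.8 to 561 ± 68.1 CPM at 1 h. The others that rose at 1 h were hsp-90, sti-1, dnj-12, dnj-13, dnj-19, bag-1 and unc-23. In contrast, the heat-inducible hsp-70 was not called (1.04 CPM starved, 1.59 CPM at 1 h, adjusted p = 0.383). At 1 h cdc-37, hip-1 and unc-45 also did not pass, and with upper-quartile scaling hip-1 was called lower (-0.56, adjusted p = 0.0456).

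Of the regulators, hsf-1 rose at 1 h, from 36.8 ± 4.06 to 53.98 ± 2.25 CPM (0.55 ± 0.15, adjusted p = 0.0101), and was at 37.7 CPM at 3 h and 37.4 CPM at 6 h. It lost the call without either 1 h library, which left 0 of the list's 2 measured genes called, and ddl-1, an inhibitor of HSF-1, was not called at any time. The transcription factor gene daf-16 differed by -0.51 ± 0.25 at 1 h (adjusted p = 0.124) and -0.49 ± 0.25 at 3 h (0.134), and was called lower at 6 h (-0.70 ± 0.22, adjusted p = 0.0155). Of 9 insulin pathway genes, 4 were lower at 1 h, 5 by 3 h and 6 by 6 h, and those higher numbered 2, 0 and 1, with medians of -0.51, -0.65 and -0.70. The 4 lower at 1 h were daf-2, the insulin receptor gene, and the kinase genes pdk-1, akt-1 and akt-2, and the 2 higher were sgk-1 and daf-18. Among all tested units, 18.7%, 19.7% and 25% were lower at 1 h, 3 h and 6 h, and 20.4%, 21.9% and 27% higher. The level of akt-1 was 284 ± 32.4 CPM in starved larvae and 29.1 ± 1.42 at 1 h. Without replicate 2 at 1 h, 1 was higher at 1 h, and the single higher gene at 6 h, sgk-1, was not called in 9 of the 10 fits that leave out a library, the exception being starved replicate 3. Of 7 other DAF-16 associated stress genes, 6 were lower at each of the 3 times: sod-3, mtl-1, ctl-1, ctl-2, dod-3 and ftn-1. These counts compare with the 18.7%, 19.7% and 25% of all tested units that were lower. The medians over the 7 were -1.48, -2.37 and -1.39. The seventh, lys-7, a lysozyme gene, was not called, but it was higher at 6 h without starved replicate 3, without either library at 3 h, or without replicate 1 or 2 at 6 h. The level of sod-3, a mitochondrial superoxide dismutase, was 22.7 ± 2.88 CPM before feeding and 8.15 ± 0.55 at 1 h, and by the later times it was 0.741 and 0.704 CPM.

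The genes most like the members were found by the Pearson correlation of log2 CPM over the 10 libraries, among 4477 named genes whose mean log2 CPM reached 4. For hsp-17 these were pfn-1 (r = 0.997), hprt-1 (0.994) and acs-14 (0.993). For hsp-12.6 they were cal-1 (0.974), nhr-21 (0.970) and twk-7 (0.963), and for hsp-12.3 they were pfkb-1.1 (0.955), tbc-8 (0.954) and nlp-35 (0.954). For sip-1 they were aat-5 (0.975), efhd-1 (0.972) and crtc-1 (0.943), and for hsp-12.1 fbp-1 (0.969), bbln-1 (0.957) and mdf-2 (0.941). For hsp-25, all 3 were ribosomal protein genes: rps-15A (0.966), rps-10 (0.959) and rpl-37.2 (0.948). For hsp-16.2 they were hsp-16.11 (0.971), hsp-16.1 (0.970) and nhr-11 (0.917). The correlation does not measure the size of a change. From starved larvae to 6 h, cal-1 went from 22.4 to 14.5 CPM and tbc-8 from 51.7 to 31.8 CPM, much smaller changes than those of hsp-12.6 and hsp-12.3. The points share libraries and depth, and the correlations are given as a description.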

How the data were processed

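Per the deposited notes, the authors made the count files with DEXSeq scripts as whole-number read counts per exonic bin, on WS210 gene models. Per the submitters' processing notes, reads were aligned with Bowtie 0.12.7 and TopHat. For the deposited FPKM values, cuffdiff (Cufflinks 1.0.2) was run by the authors on the pooled libraries of each time, so no SD exists. The sources used here do not say whether counting was stranded. Coordinates are those of the deposited WS210 annotation.

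Counts were summed over the bins of a gene, so a read across bins counts in each. Reads outside bins (8.35% to 11.4%) were left out. Of 13374 units, 13226 passed filterByExpr. R 4.3.3, edgeR 4.0.16 (TMM, robust quasi-likelihood, all 10 libraries, Benjamini-Hochberg over all units) and, as an alternative, DESeq2 1.42.0 were used. The script was tested on simulated data with known changes. The ratios of neighbours were tested with exact permutation tests. The labels name no separate cultures, so p values rest on the spread among libraries, which may be technical.

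The members and lists were chosen with earlier results of these data known. All 10 members were named, the genes of each list were counted, and the 3 most similar genes were named for each member that the joint test called. Alternatives were other scalings, another test, no filter, the longest bin, barcode set as a block, barcodes 1 to 8 alone, fits of the 2 groups compared, and each library left out. Promoter and protein sequences were not used here.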

Additional observations from a re-analysis of the deposited data

How the results depend on the processing

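Calls of hsp-17 and hsp-12.6 at all 3 times, hsp-12.3 at 3 h and 6 h, and hsp-12.1 and sip-1 at 6 h stood in every alternative run. Of 1181 member values under alternatives, 1090 kept their side of the threshold, 49 gained a call and 42 lost one, and no called value changed direction. In 44 values of 15 results the sign changed, none of them called, and the ratio of hsp-16.41 to hsp-16.2, also not called, turned from 0.43 to -0.09 with the longest bin. Library totals without TMM shifted the median of all units by 0.12, -0.24 and -0.33 at 1 h, 3 h and 6 h, and upper-quartile scaling by -0.13, -0.14 and -0.20. With totals, 5 members were lower at 3 h and 5 at 6 h, and from 1 h to 3 h 2 members were lower and 1953 units were called. With DESeq2, 1 member was higher and 2 lower from 1 h to 3 h, and 688 units were called from 3 h to 6 h. With the longest bin, 3435 units were called at 1 h, 668 from 1 h to 3 h and 167 from 3 h to 6 h, and 2 members were lower from 1 h to 3 h. With the barcode set as a block, 2 members were higher at 3 h, 1 was higher and 2 lower from 1 h to 3 h, and 565 units were called from 3 h to 6 h. With barcodes 1 to 8 alone, 1 member was lower at 1 h, 4 were higher at 3 h and 5 at 6 h, and 1 was higher and 2 lower from 1 h to 3 h. With only the 2 groups compared, 2 members were higher and 3 lower from 1 h to 3 h, among 3762 called units. Leaving out each library in turn gave 3307 to 5324 called units at 1 h, 302 to 1466 from 1 h to 3 h and 120 to 450 from 3 h to 6 h, the lowest when a library of the fed groups compared was left out. Members higher were 1 to 3 at 1 h, 1 to 3 at 3 h and 2 to 5 at 6 h, and members lower were 1 to 3 at 1 h. From 1 h to 3 h, 0 to 1 members were higher and 0 to 2 lower. The cause of these changes was not tested. Leaving out members' bins with an opposite-strand gene model, an alternative chosen after seeing the data, changed no member's call. Depth limits hsp-12.1 before feeding and hsp-12.3 and hsp-12.6 after it. Libraries of the same number share a barcode set (1 to 4, 5 to 8, 13 and 16), which the labels do not call a batch, so that block is also a replicate block. Deviations from the group means correlated across genes at r of 0.0766 to 0.33 in 13 same-numbered pairs, over 0.1 in 9, and 10 of 10 libraries correlated best with one of their own number, a hint from the data and not the design. In a group of 2 libraries, the 1 h and 3 h groups, the deviations mirror each other. The pairs and libraries are therefore not separate observations. Under the block hsp-25 also passed at 3 h (0.74, adjusted p = 0.00459), hsp-12.2 at 6 h (-0.59, 0.00521), hsp-16.41 at 6 h (0.94, 0.0252) and, from 1 h to 3 h, hsp-25 (0.78, 0.0153) and hsp-16.2 (-1.13, 0.0208). In the joint test hsp-12.2 (adjusted p = 0.0298) and hsp-16.41 (0.014) passed, and hsp-43 at 1 h did not (-0.60, 0.088).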
